A study of Mus musculus with 6 samples.

Results

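Collagen and other matrix genes were measured in mouse epiblast-like cells (EpiLC) and in embryonic stem cells (ESC). The set was chosen by gene name: every gene with a symbol of the form Col, number, a, number, which gave 44 collagen chains, and 18 other matrix genes, together 62 of the 51826 Ensembl genes counted. The 18 were the nidogens Nid1 and Nid2, Hspg2, Agrn, Fn1, Vtn, Tnc, Sparc, Tgfbi, Postn, Fbln1, Fbln2, Dcn, Lum, Bgn, Lox, Loxl1 and Loxl2, and laminins were left out. All 6 libraries came from wild-type cells of V6.5, a single mouse stem cell line, so a result here is a result for that line. EpiLC were cells on day 3 without leukaemia inhibitory factor (LIF) and without 2i, the pair of GSK3 and MEK inhibitors (3 libraries). ESC were cells kept in LIF and 2i (3 libraries). Both states were grown in Knockout DMEM with 15% fetal bovine serum, and total RNA was depleted of ribosomal RNA before sequencing.

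The matrix around early embryonic cells is mostly basement membrane, a thin sheet in which networks of laminin and of collagen IV are tied together by nidogens and by the heparan sulfate proteoglycans perlecan (Hspg2) and agrin (Agrn). In the embryo, the epiblast becomes an epithelium that rests on such a sheet, and much of it is made by the neighbouring endoderm. Collagens are trimers of chains with a repeated glycine at every turn of the helix, and they differ in what they build: the fibrils of cartilage, skin and bone, the collagen IV network, or a transmembrane protein.

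Library totals ran from 9710410 to 11425054 counts in EpiLC and from 11499687 to 22879812 counts in ESC. Levels are given in CPM, counts scaled to a common library size after TMM scaling, and fold changes are EpiLC over ESC from edgeR's quasi-likelihood test, with p-values adjusted over all 14996 genes tested. A library with 3 counts of a gene, the limit that a count of 0 allows, stood at 0.256 to 0.3005 CPM in EpiLC and 0.135 to 0.261 CPM in ESC, which covers counting error only. ESC replicate 3 stood apart from its group: a chi-square comparison of its counts with the other ESC libraries, divided by the degrees of freedom, came to 25.7 and 26.1, against 2.58 between those 2 libraries and 2.17 to 4.11 between EpiLC libraries. Several results below that rest on it are given with and without it, and the others are given with all libraries. Nothing in the labels says that the 3 libraries of a state came from separate cultures, so the p-values measure the spread between these libraries, which may be technical. The labels were checked against pluripotency markers. Of 6 naive markers, whose summed level was 281 to 289 CPM in EpiLC and 2715 to 3001 CPM in ESC, 6 were called lower, and of 6 formative epiblast markers (1427 to 1718 CPM in EpiLC, 232 to 275 CPM in ESC), 6 were called higher.

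Most collagen chains that could be tested were higher in EpiLC, while fibronectin, both nidogens and Sparc were lower. The summed level of the 44 collagens was 1272, 1207 and 1275 CPM in EpiLC replicates 1 to 3, against 530, 516 and 535 CPM in ESC replicates 1 to 3. Most of it was Col18a1 in both states, and without that gene the sums were 479, 466 and 480 CPM in EpiLC, against 196, 204 and 262 CPM in ESC. For the other 18 genes the sums ran the other way, with 1638, 1424 and 1536 CPM in EpiLC and 2470, 2394 and 3385 CPM in ESC. Of the 62 genes, 41 had enough counts to be tested: 27 were called higher in EpiLC at an adjusted p under 0.05 (over all genes tested, 32% were), 11 were called lower (32.6% of all genes) and 3 were not called. Of all genes tested, 64.6% were called in either direction. Called changes of at least 2-fold were 23 upward (17% of all genes) and 8 downward (12.4% of all genes), and those of at least 4-fold were 14 upward (8.3%) and 6 downward (5.69%). No EpiLC library lay within the ESC range, or the reverse, in 38 of the 41, against 70.2% of all genes tested. The median log2 fold change of the 41 was 1.34, against 0.01 over all genes, and it was 1.34 with Dcn set at its lower bound. These counts describe the genes that passed the filter on low counts, which a gene can pass through the state where it is high. Split by kind, the 28 tested collagens divided into 21 higher, 5 lower and 2 without a call, and the 13 other genes into 6 higher, 6 lower and 1 without a call. Counts of calls by class and by marker list below are to be read beside the 32% of all genes called higher and the 32.6% called lower. For such small groups they are a description, and the limit set by the filter applies to them too. Without ESC replicate 3, 44 of the 62 could be tested, 31 were higher (of all genes tested then, 38%) and 11 lower (38.7% of all genes), and the 38 calls made with all libraries were each kept. RNA was measured in bulk, so more cells of a kind and more RNA per cell cannot be told apart in any of these differences.

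**Figure D1:**
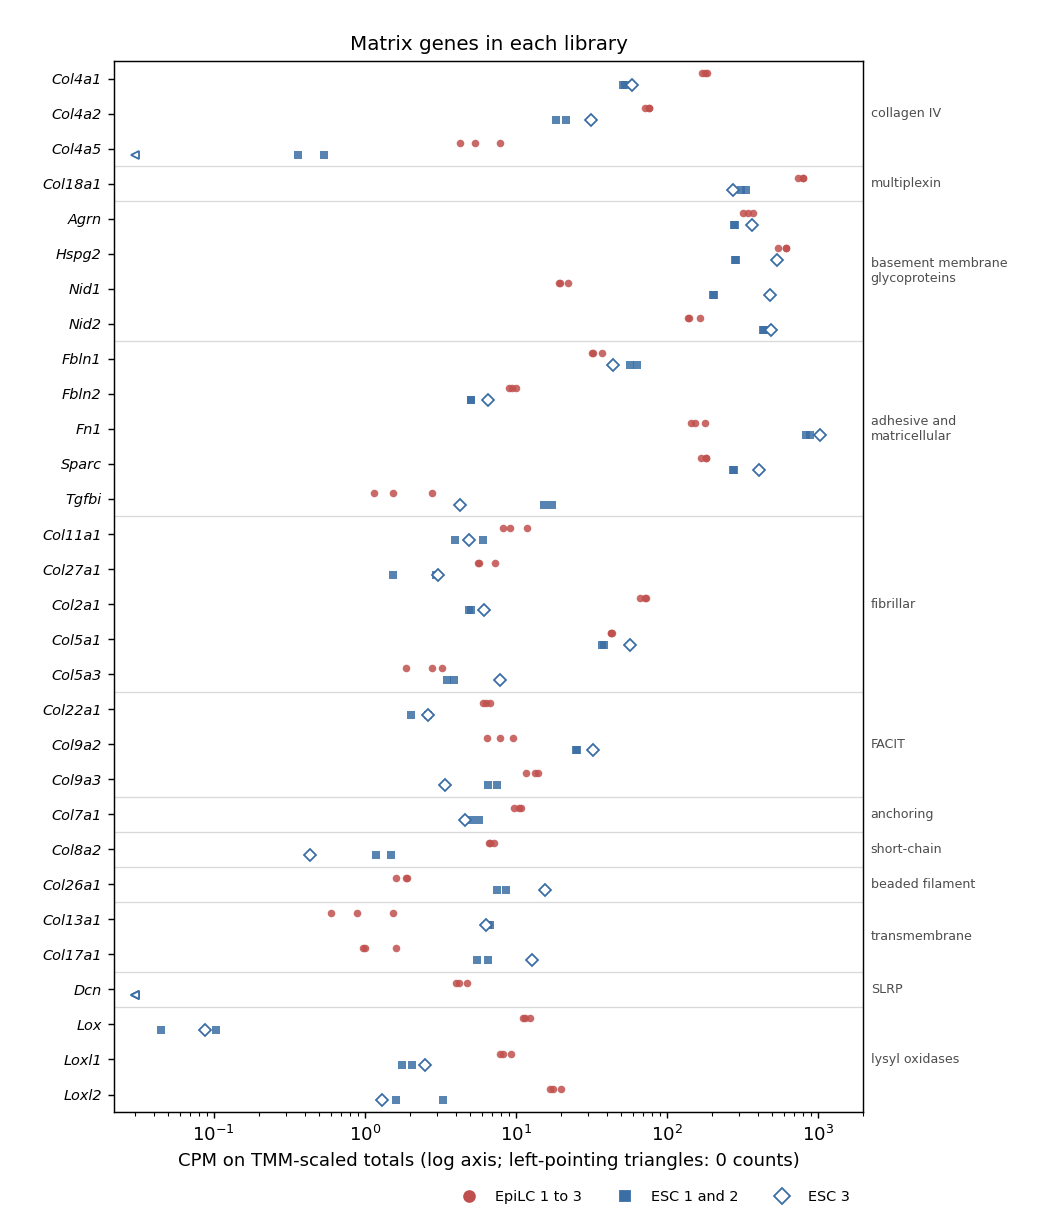
Level of the 30 matrix genes described library by library, in CPM on a log axis, with each point a library (EpiLC above, ESC below within a row; ESC 3 as an open diamond). Collagen chains such as Col4a1 and Col2a1 lie to the right in EpiLC, Nid1, Nid2 and Fn1 lie to the right in ESC, and ESC 3 stands apart from ESC 1 and 2 in Nid1, Hspg2 and Tgfbi.

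All 4 collagen IV genes that could be tested rose, of the 6 in the genome. The 6 genes lie in head-to-head gene pairs, and Col4a1 with Col4a2 code the common network of nearly all basement membranes. Among the 4, Col4a5 and Col4a6 passed the filter on low counts through their EpiLC libraries alone. They could therefore hardly be called lower, and the count of 4 is shaped by the filter. Col4a1 (ENSMUSG00000031502, chromosome 8, 11198423 to 11312826, all positions being on GRCm38) had 172, 179 and 185 CPM in EpiLC replicates 1 to 3, against 50.9, 53.1 and 58.9 CPM in ESC replicates 1 to 3. It rose 3.29-fold (log2 fold change 1.72 with SE 0.08, edgeR adjusted p = 6.52e-07). Its neighbour Col4a2 (ENSMUSG00000031503, chromosome 8, 11312805 to 11449287) had 76.1, 71.5 and 76.5 CPM in EpiLC, against 18.4, 21.7 and 31.4 CPM in ESC. It rose 3.17-fold (log2 fold change 1.67, SE 0.17, adjusted p = 6.50e-05), and ESC replicate 3 was its highest ESC library. Neither gene overlapped between the states.

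The second pair, on the X chromosome, stood far lower and also rose. Col4a5, a chain of the kidney, skin and smooth muscle basement membranes, had 7.91, 4.27 and 5.35 CPM in EpiLC, against 0.362, 0.540 and 0 CPM in ESC. Its log2 fold change was 3.99 (SE 0.60, adjusted p = 1.25e-04) and became 4.61 without ESC replicate 2. Col4a6 had 59 counts in EpiLC against 1 in ESC, a ratio of 95.1 with a 95% interval of 16.4 to 3818. That interval pools the 3 libraries of a state and covers counting error only. The 95% interval of the edgeR fit was 2.33 to 9.74 on the log2 scale. The fit gave 6.03 on the log2 scale, against 7.58 when ESC replicate 1, the library that held the single count, was left out and 5.41 when ESC replicate 2 was. The third pair, Col4a3 and Col4a4, which serves the filter of the adult kidney, was too low to test, with 3 and 7 counts in EpiLC against 0 and 1 in ESC.

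The genes of a pair are read in opposite directions from neighbouring start sites, and the sequences around those starts are shown for the pairs that rose. They are RefSeq windows on GRCm38.p6, each running from 250 bases before to 50 bases after a gene's start, 5′ to 3′ on the gene's own strand. Capitals mark matches, on either strand, to the GC box GGGCGG, the CCAAT box CCAAT, the TATA box TATAAA, the cyclic AMP response element TGACGTCA or the grainyhead-like core AACCNGTT. The GC box, as CCGCCC on the other strand, and the CCAAT box, as ATTGG, were the only motifs of these that the 4 windows held.
Col4a1 (chr8:11312777-11313076, minus strand): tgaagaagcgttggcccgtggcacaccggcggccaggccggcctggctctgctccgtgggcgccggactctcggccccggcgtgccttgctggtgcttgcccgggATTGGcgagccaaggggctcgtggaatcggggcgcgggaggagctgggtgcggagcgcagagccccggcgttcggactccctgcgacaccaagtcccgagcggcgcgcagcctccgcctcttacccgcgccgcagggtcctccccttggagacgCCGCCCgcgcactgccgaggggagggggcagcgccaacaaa
Col4a2 (chr8:11312555-11312854, plus strand): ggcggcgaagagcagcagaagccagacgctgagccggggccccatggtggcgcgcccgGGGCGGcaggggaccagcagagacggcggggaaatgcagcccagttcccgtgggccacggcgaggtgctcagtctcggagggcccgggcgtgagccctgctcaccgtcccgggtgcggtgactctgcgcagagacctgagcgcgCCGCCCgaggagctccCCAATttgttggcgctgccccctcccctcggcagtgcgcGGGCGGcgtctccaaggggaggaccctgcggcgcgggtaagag
Col4a5 (chrX:141475169-141475468, plus strand): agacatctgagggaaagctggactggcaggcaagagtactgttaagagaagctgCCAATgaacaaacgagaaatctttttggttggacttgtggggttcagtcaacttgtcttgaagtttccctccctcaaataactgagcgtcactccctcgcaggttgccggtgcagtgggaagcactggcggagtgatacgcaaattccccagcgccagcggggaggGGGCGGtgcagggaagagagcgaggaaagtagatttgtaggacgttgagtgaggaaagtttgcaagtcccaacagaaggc
Col4a6 (chrX:141474027-141474326, minus strand): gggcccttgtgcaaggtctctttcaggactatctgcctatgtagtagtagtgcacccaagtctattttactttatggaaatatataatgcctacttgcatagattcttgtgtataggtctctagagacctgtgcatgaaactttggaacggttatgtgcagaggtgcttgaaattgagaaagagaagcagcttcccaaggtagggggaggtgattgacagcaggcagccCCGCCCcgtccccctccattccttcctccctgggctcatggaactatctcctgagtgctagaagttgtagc
The start sites of Col4a1 and Col4a2 lay 21 bases apart with the transcripts overlapping, and their windows shared 78 bases. Those of Col4a5 and Col4a6 lay 1343 bases apart. G and C made up 74% and 73.7% of the Col4a1 and Col4a2 windows, and 52.7% and 48.3% of the Col4a5 and Col4a6 windows. Windows were at hand for 46 of the 62 genes, 53 in all, of which 33 (62.3%) held the GC box, 15 (28.3%) the CCAAT box, 9 (17%) the TATA box, 1 (1.89%) the cyclic AMP response element and 0 the grainyhead-like core. Of all 32851 windows of this length, 35.7% held the GC box, 37.4% the CCAAT box, 13.6% the TATA box, 1.79% the cyclic AMP response element and 2.09% the grainyhead-like core. A match is a description of the letters only.

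Per kilobase of exon, Col4a1 stood at 2.00, 2.22 and 2.14 times Col4a2 in EpiLC, against 2.45, 2.17 and 1.67 times in ESC, so the states overlapped in this ratio. The 22 exon bases that the pair shares on opposite strands are a small part of either gene, 0.295% of the exon bases of Col4a1.

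Of 14 markers of parietal and primitive endoderm, which makes much collagen IV, Sparc and nidogen in the embryo, 4 reached 1 CPM in an EpiLC library and 5 in an ESC library. They summed to 21.8 to 23.0 CPM in EpiLC and 10.1 to 15.0 CPM in ESC. Of the 6 that could be tested, 3 were called higher, 2 lower and 1 had no call. Those higher were Dab2 (9.97 CPM in EpiLC, 0.574 CPM in ESC, 21.3-fold), Gata4 (4.93 CPM in EpiLC, 2.55 CPM in ESC, 2.12-fold) and Amn (3.76 CPM in EpiLC, 1.31 CPM in ESC, 2.73-fold). Those lower were Hnf4a, at 0 in each EpiLC library and 3.46 CPM in ESC, and Sox17, with 2 counts in EpiLC and 72 in ESC, and Pdgfra had no call (1.91 CPM in EpiLC, 2.02 CPM in ESC). Among those too low to test, Gata6 averaged 0.151 CPM in EpiLC and 0.407 CPM in ESC, and Afp was at 0 in each of the 6 libraries. Cubn had 22 counts in EpiLC and 7 in ESC, and Sox7 had 10 in EpiLC and 3 in ESC. Foxa2 had 10 in EpiLC and 12 in ESC, and Thbd had 9 in EpiLC and 11 in ESC. Apoa1 had 1 in EpiLC and 11 in ESC, and Ttr had 1 in EpiLC and 1 in ESC. The part of such cells in the collagen IV and nidogen results was not tested.

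Col18a1, which codes a heparan sulfate proteoglycan collagen of basement membranes and the precursor of endostatin, was the most abundant collagen transcript in each library and rose with collagen IV. Col18a1 (ENSMUSG00000001435, chromosome 10, 77052178 to 77166548) had 793, 740 and 795 CPM in EpiLC, against 334, 312 and 274 CPM in ESC. It rose 2.53-fold (log2 fold change 1.34, SE 0.08, adjusted p = 3.77e-06). Per kilobase of exon it led all 62 genes in EpiLC at 111 CPM per kilobase and was the fourth in ESC at 43.7 CPM per kilobase. Its relative Col15a1 was close to absent, with 1 count in EpiLC and 3 in ESC. The 6 endothelial markers, from cells rich in Col18a1 and collagen IV, summed to 8.45 to 10.5 CPM in EpiLC and 164 to 180 CPM in ESC. Most of the ESC sum was Pecam1 alone, at 3.77 CPM in EpiLC and 157 CPM in ESC. Kdr had 9 counts in EpiLC and 79 in ESC, Cdh5 had 2 in EpiLC and 0 in ESC, and Emcn was at 0 in each library. Of the 3 that could be tested, 0 were called higher, Pecam1 and Tek (3.73 CPM in EpiLC, 12.6 CPM in ESC) were called lower and Tie1 had no call (1.72 CPM in EpiLC, 1.40 CPM in ESC), and their part in these results was not tested.

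Of the proteoglycans perlecan and agrin, 1 was called. Hspg2, which codes perlecan (ENSMUSG00000028763, chromosome 4, 137468769 to 137570630), had 614, 545 and 613 CPM in EpiLC, against 286, 284 and 534 CPM in ESC. ESC replicate 3 lay just under the lowest EpiLC library, and the other ESC libraries lay well below. The call (log2 fold change 0.69 with SE 0.23, edgeR adjusted p = 0.0285) was lost with DESeq2 (adjusted p = 0.0659) and without any single library other than ESC replicate 3 (adjusted p = 0.0597 to 0.0901), and leaving out ESC replicate 3 gave 1.04 (adjusted p = 2.12e-10). Agrn (ENSMUSG00000041936, chromosome 4, 156165290 to 156197488), which codes agrin, had 375, 321 and 343 CPM in EpiLC, against 283, 279 and 368 CPM in ESC. The states overlapped through ESC replicate 3 and the gene was not called (log2 fold change 0.16, adjusted p = 0.250), whereas without that library it was called higher at a log2 fold change of 0.29 (adjusted p = 3.30e-04, and up to 0.620 over the other alternatives).

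The nidogens, the linkers between the laminin and collagen IV networks, fell, and to unequal degrees. Nid1 (ENSMUSG00000005397, chromosome 13, 13437551 to 13512269) had 22.3, 19.4 and 19.5 CPM in EpiLC, against 207, 202 and 483 CPM in ESC. It fell 14.5-fold (log2 fold change -3.86, SE 0.34, adjusted p = 3.49e-05), and 10.2-fold without ESC replicate 3, which held 2.36 times the mean of the other ESC libraries. Nid2 (ENSMUSG00000021806, chromosome 14, 19751265 to 19811787) had 167, 138 and 141 CPM in EpiLC, against 441, 435 and 494 CPM in ESC. It fell 3.07-fold (log2 fold change -1.62, SE 0.09, adjusted p = 2.50e-06). Per kilobase of exon, Nid2 stood at 10.04, 9.57 and 9.71 times Nid1 in EpiLC, against 2.85, 2.88 and 1.37 times in ESC, a ratio chosen after its values were seen and not tested. Of the exon bases of Nid2, 8.45% are shared with Rtraf on the opposite strand. Rtraf had 1208, 1476 and 1344 counts in EpiLC and 3147, 3621 and 1708 counts in ESC. The strand setting of the counting is not given, so how far the shared bases bear on the Nid2 counts is not known. Their part in the fall of Nid2 and in its ratio to Nid1 was not tested.

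Fibronectin RNA was lower in EpiLC. Fibronectin, coded by Fn1 (ENSMUSG00000026193, chromosome 1, 71585520 to 71653200), is a dimeric glycoprotein that binds integrins, collagens and heparin and is assembled into fibrils by cells. Fn1 had 180, 145 and 153 CPM in EpiLC, against 886, 834 and 1037 CPM in ESC. It fell 5.76-fold (log2 fold change -2.53, SE 0.11, adjusted p = 7.42e-07), with no overlap between the states. Per kilobase of exon it was the third of the 62 genes in ESC, at 78.7 CPM per kilobase, and the seventh in EpiLC, at 13.6 CPM per kilobase.

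Among the other adhesive and matricellular glycoproteins, 3 were lower and 1 was higher. Sparc, which codes a calcium- and collagen-binding protein plentiful in basement membranes of the early embryo, had 183, 170 and 182 CPM in EpiLC, against 278, 277 and 411 CPM in ESC. It fell 1.81-fold (log2 fold change -0.85, SE 0.15, adjusted p = 0.00119), and by 0.65 on the log2 scale without ESC replicate 3. Per kilobase of exon it was the second of the 62 genes in both states. Fbln1, whose product binds fibronectin and nidogen, had 37.4, 32.1 and 32.6 CPM in EpiLC, against 63.9, 56.7 and 44.2 CPM in ESC (log2 fold change -0.70, adjusted p = 0.00234). Its paralog Fbln2 moved the other way, with 9.41, 9.05 and 9.98 CPM in EpiLC, against 5.02, 5.04 and 6.52 CPM in ESC (log2 fold change 0.80, adjusted p = 0.00175). Tgfbi, a secreted adhesion protein induced by TGF-beta, had 2.80, 1.54 and 1.16 CPM in EpiLC, against 17.4, 15.4 and 4.26 CPM in ESC, where replicate 3 was the lowest library but did not reach the EpiLC range. It fell 7.10-fold (log2 fold change -2.83, SE 0.65, adjusted p = 0.00262), and by 3.20 on the log2 scale when ESC replicate 3 was left out. Vitronectin (Vtn), tenascin-C (Tnc) and periostin (Postn) had 3, 10 and 1 counts in EpiLC against 7, 5 and 0 in ESC, too few to test.

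**Figure D2:**
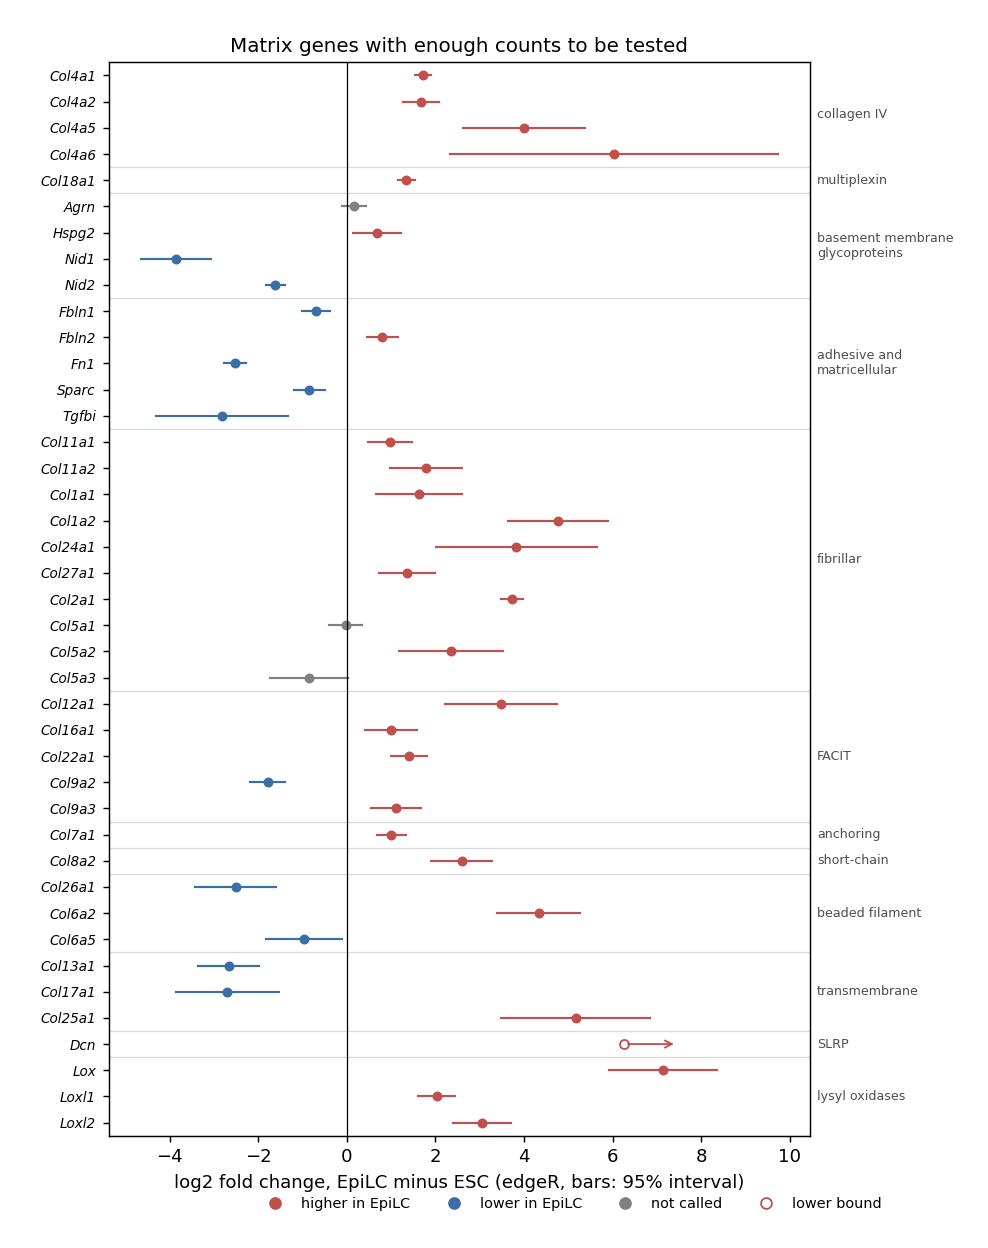
Log2 fold change, EpiLC minus ESC, of the 41 matrix genes that could be tested, with 95% intervals from edgeR, grouped by the structure the product builds. Collagen IV, 8 of 10 fibrillar chains and the lysyl oxidases lie right of zero, and Nid1, Nid2, Fn1 and the chains Col13a1 and Col17a1 lie left of it. Several genes on the right, such as Col4a6, Col1a2 and Lox, passed the filter on low counts through EpiLC alone. The open circle for Dcn is a lower bound, at 76.8-fold.

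The 10 fibrillar chains tested divided into 8 higher and 2 without a call, and their median was 1.71 on the log2 scale. Among the 8, Col1a1, Col1a2, Col5a2, Col11a2 and Col24a1 would not have passed the filter on low counts on their ESC libraries. Both the count and the median are shaped by that filter. Col2a1 (ENSMUSG00000022483, chromosome 15, 97975602 to 98004695) codes the homotrimeric collagen of cartilage and notochord. It had 72.8, 66.7 and 72.0 CPM in EpiLC, against 4.92, 5.04 and 6.17 CPM in ESC, and rose 13.3-fold (log2 fold change 3.73, SE 0.11, adjusted p = 1.00e-07). That made it the most abundant fibrillar chain in EpiLC, at 7.63 CPM per kilobase of exon, a place held in ESC by Col5a1 at 5.20 CPM per kilobase.

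The chains that join collagen II in fibrils stood lower. Col11a1 had 11.9, 8.28 and 9.18 CPM in EpiLC, against 6.06, 3.96 and 4.87 CPM in ESC (log2 fold change 0.98, adjusted p = 0.00367), and Col11a2 averaged 2.54 CPM in EpiLC and 0.743 CPM in ESC (log2 fold change 1.79, adjusted p = 0.00176). Col27a1, a fibrillar chain of cartilage, had 5.61, 7.25 and 5.70 CPM in EpiLC, against 2.95, 1.53 and 3.04 CPM in ESC (log2 fold change 1.36, adjusted p = 0.00241). Collagen I, the chief collagen of bone and skin, was scarce: Col1a1 averaged 1.65 ± 0.65 CPM in EpiLC and 0.578 ± 0.25 CPM in ESC (SD, n = 3 each), and Col1a2 averaged 3.82 ± 0.62 CPM in EpiLC and 0.140 ± 0.04 CPM in ESC. Their log2 fold changes were 1.63 and 4.76. Col24a1 had 39 counts in EpiLC and 4 in ESC and rose by 3.83 on the log2 scale, or 4.81 without ESC replicate 2. Col3a1 had 19 counts in EpiLC and 1 in ESC and was not tested.

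The collagen V chains, which start fibrils and set their width, did not move together. Col5a1 had 42.5, 43.0 and 43.4 CPM in EpiLC, against 37.3, 38.4 and 56.8 CPM in ESC, and was not called (log2 fold change -0.03, adjusted p = 0.874). ESC replicate 3 lay above the EpiLC libraries and the other ESC libraries below, and without it Col5a1 was called higher at a log2 fold change of 0.17 (adjusted p = 0.0239, and up to 0.943 over the other alternatives). The sign was also positive under scaling by the upper quartile (0.02) or by totals alone (0.03). Col5a2 averaged 3.74 ± 1.32 CPM in EpiLC and 0.856 ± 0.69 CPM in ESC (SD, n = 3 each), a log2 fold change of 2.34 (adjusted p = 0.00268) that was 2.99 without ESC replicate 3. Col5a3 had 2.80, 3.24 and 1.87 CPM in EpiLC, against 3.88, 3.51 and 7.82 CPM in ESC. The states did not overlap, but the difference was not called by edgeR (log2 fold change -0.85, adjusted p = 0.0751, and 0.0367 to 0.219 over the alternatives, with DESeq2 at 0.0411).

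Beside the fibrillar chains, Lox and Dcn, 12 markers of fibroblasts and mesenchyme were measured, of which 6 could be tested. Of these, 4 were called higher (32% of all genes tested were), 1 lower (32.6% of all genes) and 1 had no call. The 12 markers summed to 293 to 341 CPM in EpiLC and 29.8 to 35.3 CPM in ESC. Most of the EpiLC sum was Tagln, at 274 CPM in EpiLC and 2.95 CPM in ESC. The others called higher were Twist1 (10.9 CPM in EpiLC, 2.79 CPM in ESC), Acta2 (200 counts in EpiLC, 2 counts in ESC) and Des (18.8 CPM in EpiLC, 15.3 CPM in ESC). Pdgfrb was called lower, 4.05-fold (1.81 CPM in EpiLC, 7.595 CPM in ESC), and Thy1 had no call (4.85 CPM in EpiLC, 3.09 CPM in ESC). Of the 12, 6 or 7 reached 1 CPM in an EpiLC library and 5 in an ESC library. Among those too low to test, Twist2 had 24 counts in EpiLC and 2 in ESC, Prrx1 had 11 in EpiLC and 1 in ESC, Meox1 had 2 in EpiLC and 1 in ESC, Tcf21 had 1 in EpiLC and 0 in ESC, and Fap and S100a4 were at 0 in each of the 6 libraries. The part of such cells in these results was not tested.

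Of 5 fibril-associated chains tested, 4 rose and 1 fell. Col22a1, a chain of tissue junctions such as muscle with tendon, had 6.31, 6.74 and 6.06 CPM in EpiLC, against 2.02, 2.61 and 2.61 CPM in ESC (log2 fold change 1.41, adjusted p = 1.60e-04). Col12a1 averaged 2.002 CPM in EpiLC and 0.186 CPM in ESC, and rose 11.1-fold, and Col16a1 averaged 3.13 CPM in EpiLC and 1.60 CPM in ESC, and rose 1.98-fold. Collagen IX, a heterotrimer on the surface of cartilage fibrils, had chains that moved apart. Col9a2 had 9.62, 7.85 and 6.41 CPM in EpiLC, against 25.4, 25.2 and 32.2 CPM in ESC, and fell 3.46-fold (log2 fold change -1.79, SE 0.17, adjusted p = 3.68e-05). Col9a3 had 14.1, 13.5 and 11.7 CPM in EpiLC, against 6.58, 7.46 and 3.39 CPM in ESC, and rose 2.16-fold (adjusted p = 0.00377). Without ESC replicate 3, its lowest ESC library, it rose 1.84-fold. Per kilobase of exon, Col9a2 stood at 0.848, 0.725 and 0.684 times Col9a3 in EpiLC and at 4.80, 4.21 and 11.8 times in ESC. The third chain, Col9a1, had 17 counts in EpiLC and 1 in ESC. Of the exon bases of Col9a3, 6.07% are shared with Tcfl5 on the opposite strand. Tcfl5 had 1220, 1465 and 1436 counts in EpiLC and 730, 973 and 380 counts in ESC, well above Col9a3. Since the strand setting of the counting is not given, how far the shared bases bear on the Col9a3 counts is not known. Their part in the rise of Col9a3 was not tested.

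The remaining collagen classes were low. Col7a1, which forms the anchoring fibrils under skin, had 10.5, 9.82 and 10.8 CPM in EpiLC, against 5.02, 5.71 and 4.61 CPM in ESC (a rise of 2.002-fold, adjusted p = 3.09e-04). Col8a2, a short chain of the corneal basement membrane, had 6.71, 6.66 and 7.22 CPM in EpiLC, against 1.19, 1.48 and 0.435 CPM in ESC. It rose 6.02-fold (adjusted p = 7.42e-05), and 5.02-fold without ESC replicate 3, its lowest ESC library. Col10a1, the collagen of hypertrophic cartilage, had 0 counts in each of the 6 libraries.

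Of 3 tested chains that span the plasma membrane, 1 rose and 2 fell. Col13a1, a collagen of cell adhesions, had 0.601, 1.54 and 0.891 CPM in EpiLC, against 6.58, 6.79 and 6.35 CPM in ESC, and fell 6.35-fold (log2 fold change -2.67, adjusted p = 4.31e-05). Col17a1, the hemidesmosomal collagen of skin epithelium, had 1.002, 1.62 and 0.980 CPM in EpiLC, against 6.52, 5.58 and 12.8 CPM in ESC, and fell 6.49-fold (adjusted p = 8.10e-04). Without ESC replicate 3, the highest ESC library, it fell by 2.32 on the log2 scale. Col25a1, a transmembrane collagen known from neurons, averaged 3.01 ± 0.08 CPM in EpiLC and 0.067 ± 0.08 CPM in ESC (SD, n = 3 each), a log2 fold change of 5.17 that was 6.26 without ESC replicate 1.

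Among the beaded-filament chains and their relatives, 1 was higher and 2 were lower of 3 tested. Col26a1 had 1.90, 1.62 and 1.87 CPM in EpiLC, against 7.56, 8.63 and 15.6 CPM in ESC, and fell 5.70-fold (log2 fold change -2.51, SE 0.39, adjusted p = 3.70e-04), or by 2.19 on the log2 scale without ESC replicate 3. Col6a2, a core chain of the collagen VI filament, had 130 counts in EpiLC against 10 in ESC and rose 20.1-fold. Col6a5 was called lower (log2 fold change -0.97, adjusted p = 0.0407), a call lost in 8 of 13 alternatives, where the adjusted p was 0.0501 to 0.140. Its neighbours Col6a4 and Col6a6 were not tested. Col6a3, the chain that completes collagen VI with Col6a1 and Col6a2, had 9 counts in EpiLC and 71 in ESC, 38 of these in ESC replicate 3, and was not tested either.

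The lysyl oxidases, copper enzymes that cross-link collagen and elastin, all rose, with 3 higher of 3 (32% of all genes tested were called higher). Of these, Lox passed the filter on low counts through its EpiLC libraries alone. Lox (ENSMUSG00000024529, chromosome 18, 52516067 to 52529867) had 12.5, 11.6 and 11.2 CPM in EpiLC, against 0.104, 0.045 and 0.087 CPM in ESC. That is 387 counts in EpiLC against 4 in ESC, and a fitted rise of 140-fold (log2 fold change 7.13, SE 0.54, adjusted p = 5.84e-08). Loxl2, which also cross-links collagen IV, had 19.9, 17.8 and 16.8 CPM in EpiLC, against 1.61, 3.28 and 1.30 CPM in ESC, and rose 8.24-fold (adjusted p = 2.43e-05). Loxl1, which acts on elastic fibres, had 9.31, 7.85 and 8.20 CPM in EpiLC, against 1.76, 2.07 and 2.52 CPM in ESC, and rose 4.07-fold (adjusted p = 2.56e-05).

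Of the small leucine-rich proteoglycans, which coat collagen fibrils, decorin alone passed the filter. Dcn (ENSMUSG00000019929, chromosome 10, 97479609 to 97518143) had 4.01, 4.78 and 4.19 CPM in EpiLC and 0 counts in each ESC library, so it was at least 76.8-fold higher, taking 3 counts over the ESC group as the floor (edgeR adjusted p = 2.20e-05). Lum, the next matrix gene on that chromosome at a gap of 46984 bases, had 0 counts in EpiLC and 1 in ESC. Bgn had 20 counts in EpiLC and 6 in ESC.

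In all, 21 of the 62 genes were not tested, 16 of them collagens, and none of these passed 38 counts in a library. Their mean level reached at most 0.936 CPM in EpiLC and 1.62 CPM in ESC. When all genes with a count were tested, 35 of 61 matrix genes were called higher (17.3% of all genes tested then) and 14 lower (19% of all genes).

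The make-up of collagen RNA was compared by structural class. Collagen IV made up 20.2%, 21.1% and 21.04% of collagen counts per kilobase of exon in EpiLC replicates 1 to 3, against 12.2%, 13.6% and 15.8% in ESC replicates 1 to 3. The difference between the means was 6.93 percentage points, with no overlap between the states (exact permutation test, two-sided, p = 0.1, the smallest that 3 libraries against 3 can give). The multiplexins, almost wholly Col18a1, held 63.2 ± 0.64% in EpiLC and 55.5 ± 6.04% in ESC (SD, n = 3 each). Fibril-associated chains held 4.34 ± 0.60% in EpiLC and 14.3 ± 0.96% in ESC, and of the ESC share 11.3 ± 1.47% was Col9a2. Transmembrane chains held 0.466 ± 0.09% in EpiLC and 3.64 ± 0.75% in ESC. The fibrillar share was 9.06 ± 0.15% in EpiLC and 9.39 ± 2.22% in ESC, a difference within the spread of the ESC libraries, but its leading chain was Col2a1 in EpiLC (4.36 ± 0.08% of all collagen) and Col5a1 in ESC (6.59 ± 1.54%).

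**Figure D3:**
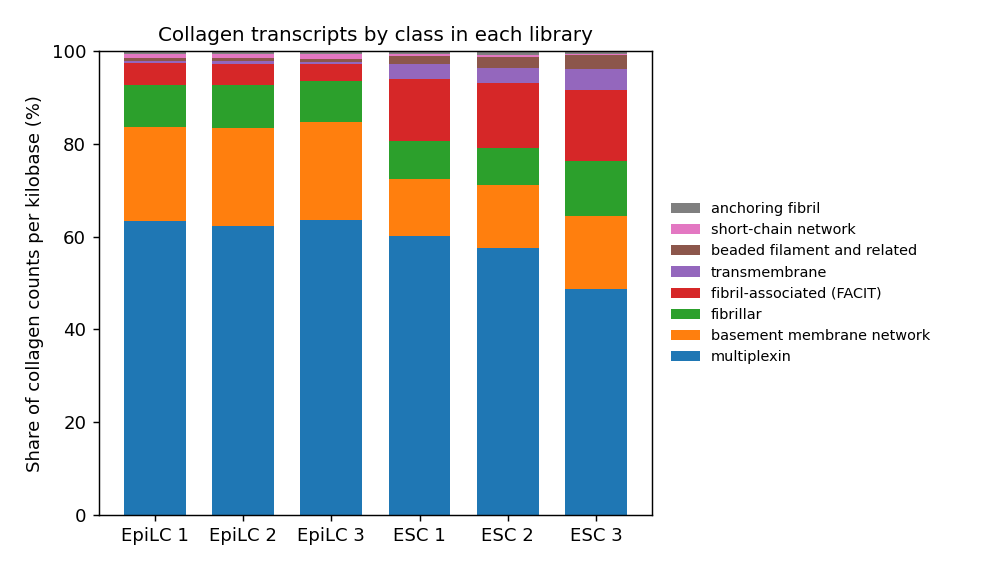
Share of collagen counts per kilobase of exon held by each structural class, in percent, with a bar for each library. Multiplexins and the basement membrane network take 83.5% to 84.7% of the EpiLC bars and 64.5% to 72.5% of the ESC bars, and the fibril-associated share is larger in ESC.

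The enzymes that modify, fold and trim collagen moved in both directions: of 29 listed, 27 were tested, 11 rose, 9 fell and 7 had no call, and the median was 0.09 on the log2 scale. Beside the 32% of all genes called higher, the 32.6% called lower and their median of 0.01, these counts, like those of the next 3 lists, are given as a description. The list takes in prolyl and lysyl hydroxylases, chaperones, procollagen proteases and further cross-linking enzymes. P3h2, a prolyl 3-hydroxylase that acts on collagen IV, averaged 6.23 ± 0.81 CPM in EpiLC and 0.109 ± 0.11 CPM in ESC (SD, n = 3 each; log2 fold change 5.48, or 6.38 without ESC replicate 2). Adamts3, a procollagen N-protease, rose 10.9-fold. Pxdn, the peroxidase that forms the sulfilimine cross-links of collagen IV, averaged 126 ± 3.20 CPM in EpiLC and 15.0 ± 0.96 CPM in ESC, an 8.36-fold rise (adjusted p = 6.22e-08). Pcolce, an enhancer of procollagen C-proteinase, fell 8.15-fold, with 10.1 ± 0.98 CPM in EpiLC and 81.7 ± 26.2 CPM in ESC. Among the enzymes without a call were the lysyl hydroxylases Plod2 (74.0 CPM in EpiLC, 68.0 CPM in ESC) and Plod3 (52.5 CPM in EpiLC, 49.5 CPM in ESC) and the prolyl 4-hydroxylase subunit P4ha1 (48.6 CPM in EpiLC, 52.3 CPM in ESC). The collagen export factor Mia3 (66.9 CPM in EpiLC, 67.5 CPM in ESC), Loxl3 (3.01 CPM in EpiLC, 3.40 CPM in ESC), Loxl4 (3.40 CPM in EpiLC, 2.80 CPM in ESC) and Colgalt2 (2.14 CPM in EpiLC, 2.94 CPM in ESC) had none either.

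Genes for proteases that cut matrix, with their inhibitors, numbered 25, of which 20 were tested, 10 rose, 5 fell and 5 had no call (median 0.78 on the log2 scale). Adamts1, which cuts large proteoglycans, averaged 20.1 ± 1.67 CPM in EpiLC and 0.509 ± 0.29 CPM in ESC (SD, n = 3 each) and rose 35.3-fold. Its relative Adamts5 had 116 counts in EpiLC against 2 in ESC, a ratio of 93.5. Its 95% interval of 25.3 to 781 covers counting error only. Mmp25, a metalloproteinase anchored in the membrane, averaged 32.9 ± 0.86 CPM in EpiLC and 1.05 ± 0.03 CPM in ESC, and rose 31.0-fold. In the other direction Mmp19 had 2 counts in EpiLC against 115 in ESC. The ratio of ESC to EpiLC was 35.7, with a 95% interval of 9.66 to 298, also for counting error only. The genes without a call were Adamts9 (38.3 CPM in EpiLC, 46.3 CPM in ESC), Reck (10.01 CPM in EpiLC, 12.1 CPM in ESC), Mmp23 (6.64 CPM in EpiLC, 3.90 CPM in ESC), Mmp24 (2.24 CPM in EpiLC, 1.30 CPM in ESC) and Mmp28 (1.59 CPM in EpiLC, 2.02 CPM in ESC).

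Collagen receptors other than integrins numbered 8, of which 6 were tested, 3 rose, 1 fell and 2 had no call (median 0.14 on the log2 scale), a called share near the 64.6% of all genes. The receptor kinase Ddr1, which binds collagen IV and fibrillar collagens, averaged 123 ± 10.9 CPM in EpiLC and 20.01 ± 0.92 CPM in ESC (SD, n = 3 each), a 6.14-fold rise (adjusted p = 2.07e-07). Mrc2, an endocytic collagen receptor, averaged 26.4 ± 0.74 CPM in EpiLC and 2.11 ± 0.75 CPM in ESC, and rose 11.8-fold. Dag1, which codes dystroglycan, a receptor of laminin, perlecan and agrin, averaged 164 ± 5.13 CPM in EpiLC and 120 ± 7.22 CPM in ESC, and rose 1.37-fold. Ddr2, whose ligands are fibrillar collagens, averaged 0.338 ± 0.07 CPM in EpiLC, and had 1.61, 2.52 and 11.1 CPM in ESC replicates 1 to 3. Its log2 fold change was -3.70 (adjusted p = 0.0195) with all libraries and -2.63 (adjusted p = 2.18e-05) without ESC replicate 3, and the call was lost without any EpiLC library (adjusted p = 0.0598 to 0.0704). The adhesion receptors Adgrg1 (2.95 CPM in EpiLC, 3.85 CPM in ESC) and Adgrg6 (1.86 CPM in EpiLC, 2.45 CPM in ESC) had no call.

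Further secreted regulators of matrix numbered 18, of which 11 were tested, 7 rose, 1 fell and 3 had no call (median 2.19 on the log2 scale). Thbs1, which codes the matricellular protein thrombospondin 1, averaged 233 ± 29.6 CPM in EpiLC and 0.689 ± 0.47 CPM in ESC (SD, n = 3 each), a 377-fold rise (adjusted p = 1.21e-07). Its paralog Thbs2 rose by a log2 fold change of 2.92, or 4.16 without ESC replicate 2. Spock3, a testican, averaged 3.14 ± 0.29 CPM in EpiLC and 0.171 ± 0.09 CPM in ESC, and rose 16.1-fold. Efemp1, a fibulin gene, averaged 18.6 ± 2.95 CPM in EpiLC and 2.36 ± 0.47 CPM in ESC, and rose 7.91-fold. No call was made for Spock2 (30.5 CPM in EpiLC, 26.2 CPM in ESC), Efemp2 (8.22 CPM in EpiLC, 9.98 CPM in ESC) or Fbln5 (2.69 CPM in EpiLC, 2.99 CPM in ESC).

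**Figure D4:**
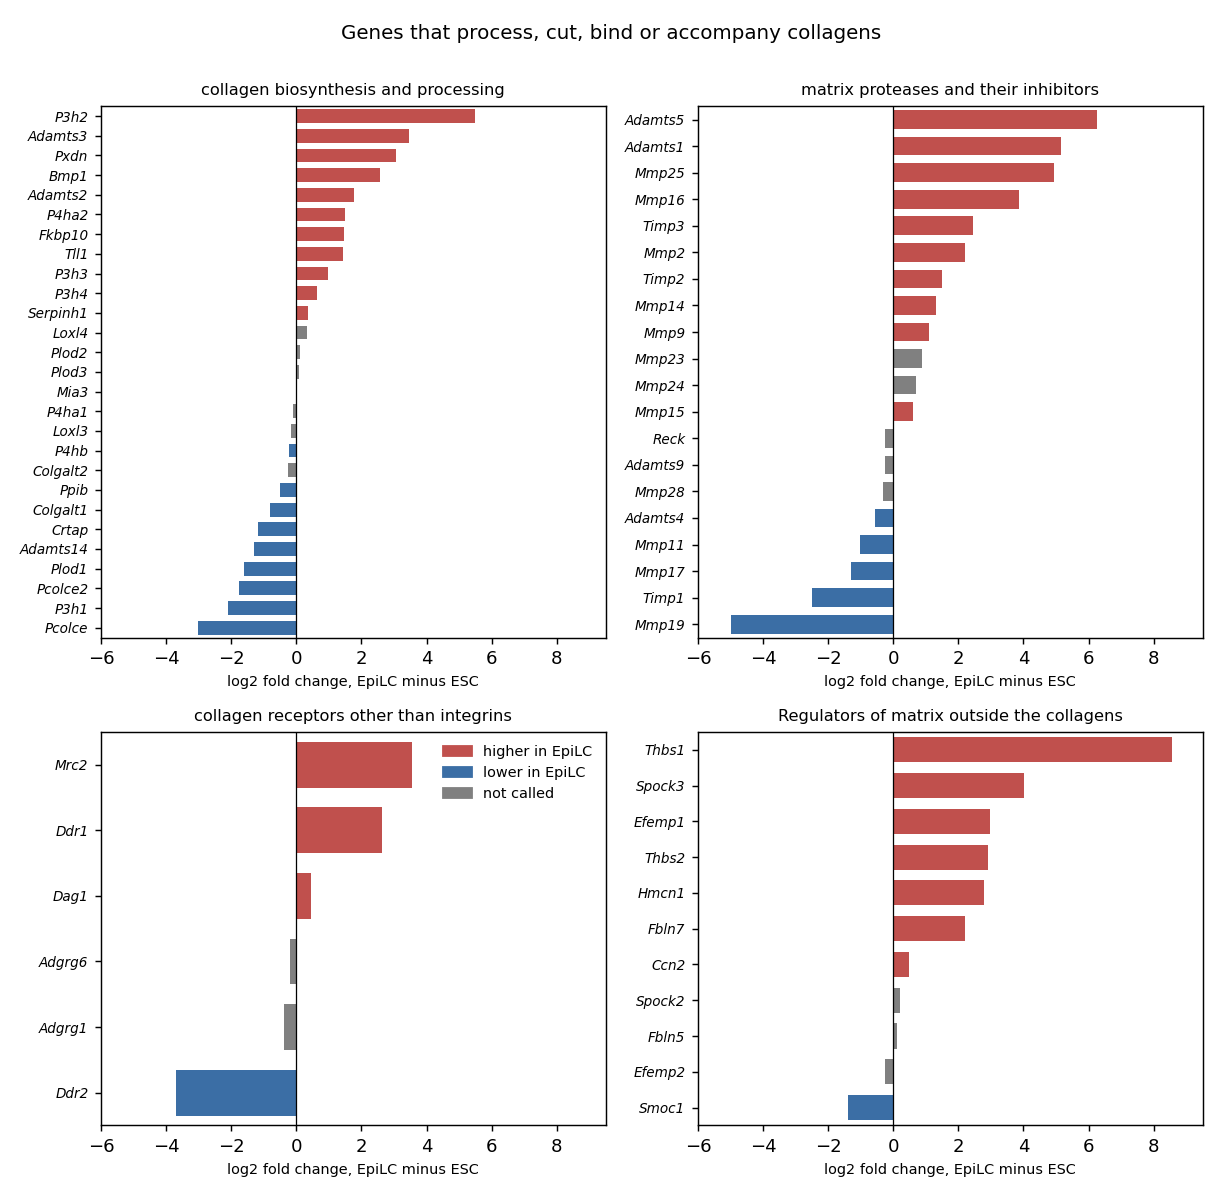
Log2 fold change, EpiLC minus ESC, of the tested genes in the 4 lists of collagen processing, matrix proteolysis, collagen receptors and other matrix regulators, coloured by call. Each list holds genes on both sides of zero, and Thbs1 at 8.56 is the longest bar.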

How the data were processed

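RNA from 6 libraries, 3 EpiLC and 3 ESC, was measured by sequencing. The authors deposited raw read counts per Ensembl gene, whole numbers with no normalization. Per the submitters' processing notes, the tools were DESeq2, featureCounts, STAR and cutadapt, on build mm10, and per the labels' protocols about 100 ng of depleted RNA entered a stranded kit. Their versions, the gene annotation, whether counting used strand and how multi-mapping reads were treated are each not given in the sources used. Of 51918 rows, 92 spike-in rows held 0 counts and were left out, and 51633 of 51826 Ensembl IDs matched GENCODE M21 (GRCm38), which gave symbols, positions and the union of exon lengths. The number of listed columns not used was 0.

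Counts were tested with edgeR 4.0.16 in R 4.3.3 (filterByExpr with 10 counts and 15 in total, TMM, quasi-likelihood with the group as the single term, two-sided, Benjamini-Hochberg over all genes, threshold 0.05). Standard errors are Wald errors of that fit. Intervals given with a ratio of counts are exact binomial intervals on the counts pooled over a state, without the spread between libraries. Library totals and 3-count floors are in the report. Alternatives were DESeq2 1.42.0, other scalings and filters, a block on replicate number and leaving out each library. The edgeR script was tested on simulated counts of 14782 genes for this comparison: of 100 genes changed 4-fold it called 99, of 100 changed 2-fold it called 97, and of 14582 unchanged genes it called 9. The simulation gave every gene the same spread between libraries (10.7% as a coefficient of variation) and had no library that stood apart. It changed only genes above a set mean count. These rates check the script and do not carry over to genes with few counts or to the spread of ESC replicate 3.

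The genes, lists and tests were chosen with earlier results of these data known. Values in every library are given for members with a mean of at least 5 CPM in either state or at 0 in a state and called. From each of 4 other lists up to 4 called genes with the largest change and at least 1 CPM are named, and further genes were named after their values were seen. Replicate numbers are shared between the states in the labels.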

Additional observations from a re-analysis of the deposited data

How the results depend on the processing

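Of the 41 matrix genes tested, 36 kept their direction and their side of the threshold under each of the alternatives that could be fitted (531 values in all). The exceptions were Hspg2, Agrn, Col5a1, Col5a3 and Col6a5: 14 values were no longer called, 4 became called with the same sign, and 3 changed sign, all of Col5a1 (log2 fold change 0.0151 with upper quartile scaling, 0.0323 with library totals and 0.17 without ESC replicate 3, where it was also called). The cause was not tested. The count of matrix genes called higher was 25 to 35 and the count lower 10 to 14 over the other settings. Without a filter beyond 1 count, the collagens called lower numbered 8 in place of 5, 1 of the added being Col5a3, which had been tested before. Leaving out 1 library at a time gave 26 to 31 matrix genes higher and 10 to 12 lower, 21 to 24 collagens higher and 4 to 6 lower, 4188 to 5815 of all genes higher and 4326 to 5915 lower, and a collagen IV share 6.12 to 7.89 percentage points above ESC. Upper quartile scaling and library totals shifted the median of all genes to 0.06 and 0.08.

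Same-numbered libraries did not deviate from their group means together (r = -0.09, -0.01 and -0.15 for numbers 1 to 3). No library correlated best with its own number, so the numbers were not taken as pairs. With the replicate block, 4584 genes were called higher and 4647 lower, against 4794 and 4892 without it, and 27 matrix genes were higher and 10 lower, the lost call being Col6a5. The 21 members not tested were left out by the filter on low counts.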
